A study of Mus musculus with 12 samples.

Results

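Neutralization of tumour necrosis factor (TNF) was examined in muscle macrophages of Ifngr1 null/null mice, in which the altered gene encodes the ligand-binding chain of the interferon gamma (IFN-γ) receptor. The comparison set 3 libraries from Ifngr1 null/null mice given an anti-TNF antibody (titles 40C2, 40A3 and 46C6) against 3 libraries from Ifngr1 null/null mice given an isotype antibody (40B2, 46C3 and 40C4). These are 6 of the 12 libraries in the series, chosen by their genotype and treatment labels alone, and all 12981 genes that passed the filter on low counts, of 24421 symbols in the table, were followed. The other 6 libraries came from wt/null mice under the same antibodies, 3 each.

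All groups shared an injury of the tibialis anterior muscle by notexin, a venom toxin that kills muscle fibres, and a daily intraperitoneal dose of antibody. On day 5 the live (PI-) CD45+ CD11B+ cells without LY6G or SIGLECF were sorted. Both groups compared here carried 2 null alleles of Ifngr1, so the antibody is the difference the labels give. Neither the structure of the null allele nor whether each library came from its own mouse is stated in the labels, and p-values therefore measure the spread between these libraries, which may be technical. The meaning of 40 and 46 in the titles is not given either. Per the labels the cells are macrophages and, per the series title, the study asked how TNF and IFN-γ cooperate in the transition of macrophages from an inflammatory to an anti-inflammatory state.

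TNF is a trimeric cytokine that binds TNFR1 (gene Tnfrsf1a) and TNFR2 (Tnfrsf1b) and activates NF-κB, which induces its own subunits and inhibitors, chemokines and survival genes. IFN-γ binds a receptor built from the chains encoded by Ifngr1 and Ifngr2 and induces GTPases, antigen presentation genes and chemokines. In injured muscle, inflammatory macrophages that clear debris are followed by reparative macrophages that support regrowth of fibres.

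Macrophage markers were abundant in all 6 libraries, whose depth was alike. Totals were 26.8 ± 3.03 M counts under isotype and 26.0 ± 0.477 M under anti-TNF (mean ± SD, n = 3 each), and an exact two-sided permutation test gave p = 0.8, where 0.1 is the smallest that 3 against 3 allows. Levels below are CPM, counts per M counts of a library after TMM scaling. They are listed in the order 40B2, 46C3 and 40C4 for isotype and 40C2, 40A3 and 46C6 for anti-TNF. The macrophage genes Adgre1 (F4/80) and Csf1r (the receptor for colony-stimulating factor 1) lay at 1469 to 1783 and 3157 to 4061 CPM, and the 17 macrophage identity genes summed to 37400 to 43450 CPM. Siglecf lay at 5.65 to 8.92 CPM, and the T cell gene Cd3e did not pass the filter on low counts. Ifngr1 transcript was still counted, at 87.9, 88 and 90.2 CPM under isotype and 119, 87.2 and 83.3 CPM under anti-TNF. It did not differ beyond spread between the antibody groups, with an unadjusted p of 0.327 in edgeR.

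Against all genes, TNF neutralization without Ifngr1 left no gene past the threshold. edgeR's quasi-likelihood test with Benjamini-Hochberg adjustment at 0.05 called 0 of 12981 genes (0%), with a smallest adjusted p of 0.947. DESeq2 and limma voom with sample weights also called 0, with a smallest adjusted p of 0.0783 and 0.815 in that order. Fitted on the 6 null/null libraries alone, edgeR called 1 gene with a placeholder symbol, BC002163, with and without 40C2. At an unadjusted p below 0.05 edgeR counted 252 genes with higher estimates under anti-TNF (1.94%) and 200 with lower estimates (1.54%). That is 452 genes in all, fewer than the 649 that a flat distribution of p-values would give. The levels of the groups did not overlap, with all 3 anti-TNF libraries above all 3 isotype libraries, in 502 genes (3.87%), and with all 3 below in 590 (4.55%).

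The size of effect that these libraries could have missed differs between genes. The median width of the 95% interval was ± 0.332 on the log2 scale, and for 10359 genes (79.8%) the whole interval lay inside a 2-fold change in either direction. For the rest the interval reached past a 2-fold change in at least 1 direction. The estimates were centred near 0, with a median log2 fold change of 0.00549 (anti-TNF minus isotype, here and throughout) and 48.7% of genes lower.

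The anti-TNF library 40C2 stood apart from the other 5. On the first principal component of the 6 libraries (42.8% of variance) it scored 53.2, and the others scored between -18.4 and -2.81. It held the highest or the lowest value of the 6 in 53.1% of genes, where an even share is 33.3% and the others ranged from 23.7% to 37.9%. Flt3, a receptor of dendritic cells, lay at 23.2, 27.9 and 23.4 CPM under isotype and 89.3, 24.9 and 31.5 CPM under anti-TNF, and was high in 40C2 alone. Dendritic cell markers summed to 655 CPM in 40C2 and 324.8 to 377.8 CPM in the other 5, and fibroblast markers to 742.6 CPM against 1350 to 2690. Ctsk, a protease of osteoclast-like cells, lay at 698, 400.0 and 691 CPM under isotype and 35.9, 261 and 982 CPM under anti-TNF, with its lowest value in 40C2. In bulk samples such as these, a different share of cells of a type and a different amount of RNA per cell cannot be told apart.

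**Figure D1:**
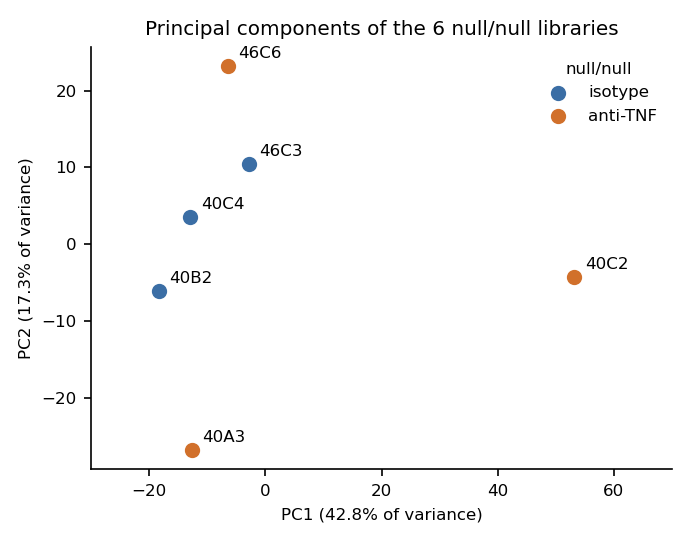
Scores of the 6 null/null libraries on the first (x axis, 42.8% of variance) and second (y axis, 17.3% of variance) principal components of log2 CPM, with 1 point per library, labelled by title and coloured by antibody. 40C2 lies alone at 53.2 on the x axis, while the other 2 anti-TNF libraries lie among the isotype libraries there and at opposite ends of the y axis.

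Without 40C2, 2 anti-TNF libraries were left against 3 isotype libraries. edgeR called 0 genes again (0%), with a smallest adjusted p of 1, so the absence of calls held without 40C2. The number at an unadjusted p below 0.05 was 179, made of 102 higher (0.786%) and 77 lower (0.593%). Groups without overlap, which are more frequent with fewer libraries, made up 886 genes higher (6.83%) and 964 lower (7.43%). A gene whose groups do not overlap in all 6 libraries cannot overlap in fewer, so for such a gene only the estimate and its p bear on whether a difference held without 40C2. The median interval was ± 0.36 and lay inside a 2-fold change for 79.1% of genes. The sign of the estimate was the same with and without 40C2 in 79.3% of genes, as the plot of both sets of estimates shows.

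**Figure D2:**
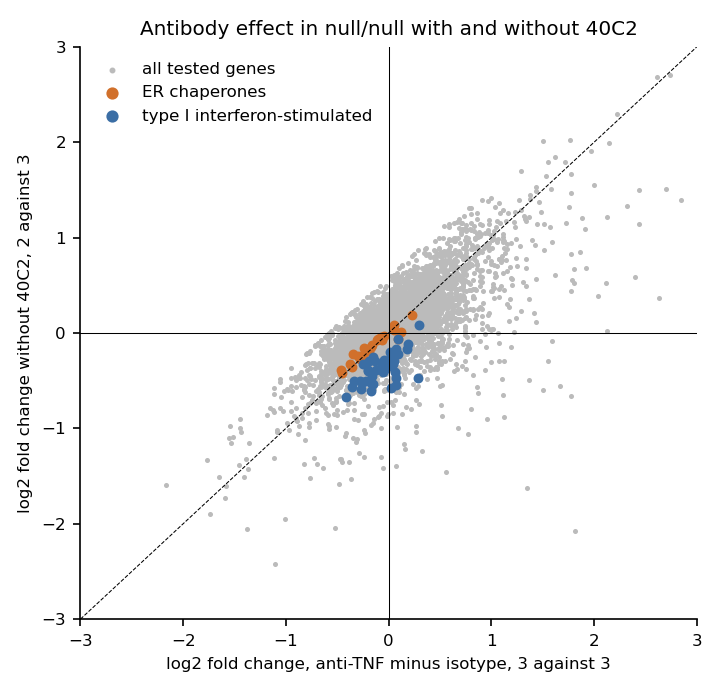
Log2 fold change of each tested gene with all 6 null/null libraries (x axis) against the same without 40C2 (y axis), with endoplasmic reticulum chaperones and type I interferon-stimulated genes in colour, and 1 gene outside the axes. The chaperones lie along the dashed line of equality, with 18 of 22 below 0 without 40C2, and the interferon-stimulated genes lie under it, with 39 of 40 below 0 without 40C2 (but 37 of 40 above 0 without the isotype library 40C4, and 32 of 40 without 40A3, which are not drawn).

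Among the 33 gene lists, the endoplasmic reticulum (ER) chaperones had the most members with every anti-TNF library below every isotype library. These proteins fold and inspect secreted and membrane proteins, and the unfolded protein response induces them when folding capacity runs short. Of the 22 tested members 0 were called. The estimates of 17 were lower and of 5 higher, with a median log2 fold change of -0.163 beside 0.00549 over all genes. Without 40C2 18 were lower, with a median of -0.139. In 8 members all 3 anti-TNF libraries lay below all 3 isotype libraries, beside 4.55% of all genes. They were Hspa5, Hyou1, Pdia4, Creld2, Pdia6, Calr, Sdf2l1 and Syvn1, and no other member separated in this direction when 40C2 was left out. Genes of a list are not independent replicates, so these 8 do not count as separate results. At an unadjusted p below 0.05, 7 members were lower with all libraries and 4 without 40C2, where the background was 1.54% and 0.593%. Where 2 estimates are given for a gene below, the second is without 40C2. The list median lay between -0.139 and -0.246 whichever 1 of the 6 libraries was left out. It was nearer 0 with voom sample weights, at -0.101. With the title number as a block it was -0.16, and -0.119 without 40C2.

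A promoter element found in 5 of these 8 genes is shown here, since these are the members without overlap. The ER stress response element, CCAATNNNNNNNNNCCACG, is bound by NF-Y at its CCAAT end and by the sensor ATF6 at its CCACG end. RefSeq promoter windows (GRCm38.p6, 250 bases before to 50 after the gene start) were searched on both strands. The element was found in 37 of 27025 genes (0.137%), in 16 of the 9911 tested genes with a window (0.161%), and in 7 of the 19 chaperone list members with a window. Among these 7 were Hsp90b1 and Dnajc3, whose groups overlapped, with log2 fold changes of -0.16 and -0.06 (-0.13 and -0.07 without 40C2). Of the 8 members without overlap, 7 had a window and 5 held the element: Hspa5, Creld2, Pdia6, Calr and Syvn1. A match is a description of the letters and not of a bound site. The windows of 4 of them, on the strand of the gene and ending before its start, read as follows, with the element in capitals. In Creld2 it is read on the opposite strand, so its letters appear in reverse complement.
Hspa5, chr2:34771975-34772089 (+): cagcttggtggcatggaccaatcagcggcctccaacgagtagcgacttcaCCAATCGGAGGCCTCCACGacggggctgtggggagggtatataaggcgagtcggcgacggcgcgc
Creld2, chr15:88819470-88819588 (+): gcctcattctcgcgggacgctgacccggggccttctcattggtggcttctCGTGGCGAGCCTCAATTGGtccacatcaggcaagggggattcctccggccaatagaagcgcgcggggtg
Pdia6, chr12:17266441-17266559 (+): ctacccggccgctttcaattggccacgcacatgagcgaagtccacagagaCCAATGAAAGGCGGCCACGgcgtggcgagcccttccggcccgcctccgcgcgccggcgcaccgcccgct
Syvn1, chr19:6046482-6046575 (+): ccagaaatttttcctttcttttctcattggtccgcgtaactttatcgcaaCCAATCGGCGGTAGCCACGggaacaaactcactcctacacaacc
The element began 65 bases before the gene start in Hspa5, 126 in Creld2, 98 in Pdia6 and 44 in Syvn1. Over all 16 tested genes that hold it, 13 had lower estimates under anti-TNF (median log2 fold change -0.125), beside 48.7% of all genes. Without 40C2 12 did (median -0.147), beside 49.6%. The 16 include the 7 list members with the element, all lower in both fits. The list was singled out by its low values, so for these 7 the count restates that choice and is no separate support. The 5 of the 16 with all anti-TNF libraries below all isotype libraries were list members. Outside the list, Derl3, Canx, Adcy3, Alg12 and Acacb were lower in both fits, and Xlr3b only with all libraries. Whether the element plays a part was not tested. Among the 16, the exceptions with all libraries were Spats2l, Pan2 and Hnrnpa3, and without 40C2 Xlr3b was higher as well.

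Among the members with the element, Hspa5 encodes BiP, the main Hsp70 chaperone of the ER (chr2:34772090-34776529). It lay at 1422, 1125 and 1377 CPM under isotype and 1023, 1008 and 1037 CPM under anti-TNF. The anti-TNF libraries were close together and all under the lowest isotype library. The log2 fold change was -0.36 ± 0.12 (estimate ± SE, here and below, unadjusted p = 0.013) and -0.35 ± 0.14 without 40C2 (unadjusted p = 0.0297). Creld2, a disulfide isomerase-like factor secreted on ER stress (chr15:88819646-88826681), lay at 48.5, 43.4 and 59.5 CPM under isotype and 33, 39.4 and 37.6 CPM under anti-TNF. Its log2 fold change was -0.46 ± 0.13 (unadjusted p = 0.00465) and -0.39 ± 0.15 without 40C2 (unadjusted p = 0.0218). In the wt/null libraries Creld2 lay at 45.3, 38.1 and 36.4 CPM under isotype and 37.8, 36.6 and 45.1 CPM under anti-TNF, so 2 of the 3 null/null isotype values lay above every wt/null value.

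Pdia6, a protein disulfide isomerase, lay at 336, 304 and 318 CPM under isotype and 265, 275 and 269.5 CPM under anti-TNF, a log2 fold change of -0.24 ± 0.11 (-0.23 ± 0.13 without 40C2). Syvn1, the ubiquitin ligase HRD1 that marks misfolded ER proteins for degradation, lay at 60.4, 65.3 and 72.7 CPM under isotype and 54.2, 53.2 and 56.4 CPM under anti-TNF, at -0.28 ± 0.11 (-0.27 ± 0.13 without 40C2). Calr, a lectin chaperone that also serves MHC class I assembly, lay at 1206, 1105 and 1124 CPM under isotype and 857, 1001 and 1048 CPM under anti-TNF, at -0.24 ± 0.13 (-0.16 ± 0.15 without 40C2). For each of the 3 the anti-TNF libraries were all lower, and the unadjusted p without 40C2 was 0.105, 0.0563 and 0.296 in that order, so none reached 0.05 there. Pdia6, Syvn1 and Sdf2l1 were named after their values were seen.

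Hyou1, Pdia4 and Sdf2l1 were the other 3 without overlap. Hyou1, a large ER chaperone that exchanges the nucleotide of BiP (chr9:44379490-44392369), lay at 209, 174 and 223 CPM under isotype and 139.7, 147 and 156 CPM under anti-TNF. All anti-TNF libraries were lower. The estimate was -0.45 ± 0.13 (unadjusted p = 0.00374), and -0.41 ± 0.15 without 40C2 (unadjusted p = 0.0151). Pdia4, another disulfide isomerase, lay at 156, 126 and 161 CPM under isotype and 105, 118 and 117 CPM under anti-TNF, and its estimate of -0.38 ± 0.12 was -0.33 ± 0.14 without 40C2 (unadjusted p = 0.00985 and 0.0382). Sdf2l1, a cofactor of BiP, lay at 118, 115 and 130.5 CPM under isotype and 78.6, 103 and 105 CPM under anti-TNF. 40C2 was the lowest, and the estimate of -0.34 ± 0.13 was -0.22 ± 0.13 without it (unadjusted p = 0.0243 and 0.113). Manf, a secreted ER stress factor, was lower at an unadjusted p of 0.0199 with all libraries (-0.30 ± 0.11) and at 0.0745 without 40C2 (-0.24 ± 0.12). Its groups overlapped.

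Regulators of the response had estimates nearer 0 or higher. Xbp1 and Atf6, transcription factors of the unfolded protein response, had estimates of -0.11 ± 0.09 and 0.09 ± 0.12 (-0.06 ± 0.10 and -0.06 ± 0.11 without 40C2). Ddit3 (CHOP), induced when the stress persists, was at 0.12 ± 0.25 (0.01 ± 0.28 without 40C2), and Dnajb9, a BiP cochaperone, at 0.22 ± 0.15 (0.19 ± 0.17 without 40C2). The groups overlapped for all 4. In the wt/null libraries the list had a median of -0.0732.

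**Figure D3:**
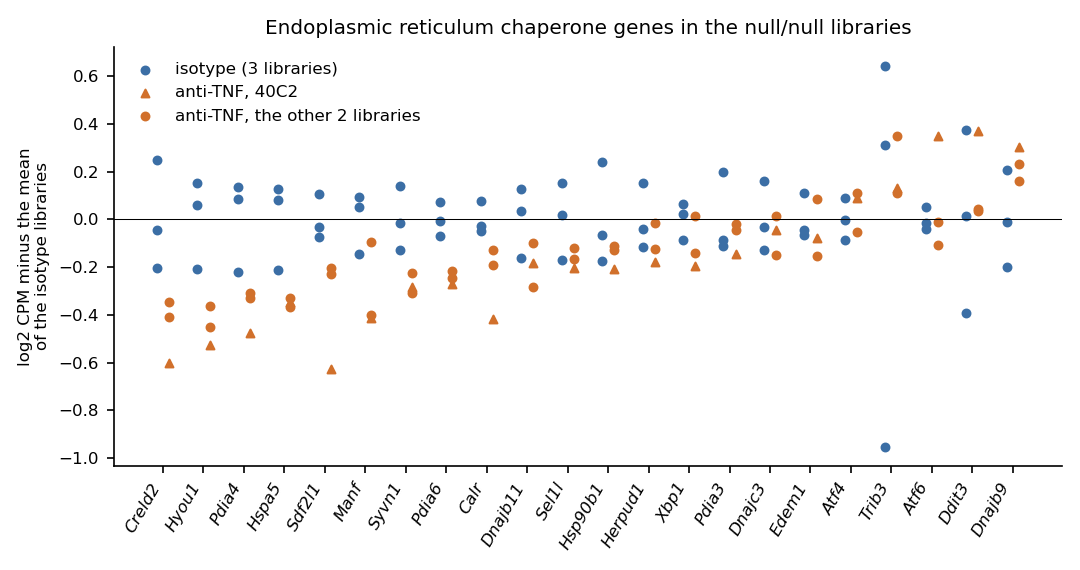
Log2 CPM of each of the 22 tested endoplasmic reticulum chaperone genes (x axis, ordered by estimate) in the 3 isotype (blue) and 3 anti-TNF (orange, 40C2 as a triangle) null/null libraries, minus the mean of the isotype libraries (y axis). For 8 of the genes every orange point lies under every blue point.

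Other genes with lower estimates were led by Dbp, Mcm2, Creld2, Hyou1, Wdr46, Ccdc86, Pdia4, Polr1a, Adam8 and Cyth1. These are the 10 lowest log2 fold changes among genes with an unadjusted p below 0.01 and a mean log2 CPM of at least 2, and none was called. Adam8, a surface metalloprotease of myeloid cells that sheds adhesion molecules (chr7:139978932-139995207), lay at 321, 336 and 357 CPM under isotype and 262, 272 and 256 CPM under anti-TNF. Every anti-TNF library was lower, with an estimate of -0.36 ± 0.10 (unadjusted p = 0.00245). Without 40C2 the estimate was -0.36 ± 0.11 (unadjusted p = 0.00776), so it held in that fit. The fit shares the remaining libraries, and Adam8 was named by its p in them, so the 2 results are not independent. In wt/null its estimate was -0.20, and the difference between the genotypes was -0.16 ± 0.13 (unadjusted p = 0.26).

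Polr1a, the largest subunit of RNA polymerase I, which transcribes ribosomal RNA (chr6:71909053-71979435), lay at 35.4, 30.7 and 31.9 CPM under isotype and 25.5, 24.7 and 25.5 CPM under anti-TNF. Its estimate was -0.37 ± 0.10 (unadjusted p = 0.00281) and -0.38 ± 0.12 without 40C2 (unadjusted p = 0.0073). Ccdc86, a nucleolar protein, lay at 27.5, 29.1 and 34.9 CPM under isotype and 25.1, 20 and 25.3 CPM under anti-TNF, at -0.38 ± 0.12 and at -0.43 ± 0.14 without 40C2. Wdr46, also nucleolar, lay at 32.8, 34.4 and 38.1 CPM under isotype and 22.9, 27 and 29.4 CPM under anti-TNF, at -0.41 ± 0.12 and at -0.32 ± 0.12 without 40C2. For all 3 genes the anti-TNF libraries were below the isotype libraries.

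Dbp, a transcription factor of the circadian clock, lay at 25, 22.2 and 27.9 CPM under isotype and 16.2, 15.5 and 20.1 CPM under anti-TNF, with an estimate of -0.54 ± 0.15 (-0.49 ± 0.17 without 40C2). Cyth1, an exchange factor for ARF GTPases, lay at 225, 186 and 202 CPM under isotype and 151, 162 and 169.9 CPM under anti-TNF, with -0.35 ± 0.11 (-0.30 ± 0.12 without 40C2). Neither overlapped. Polr1a, Adam8 and Ccdc86 were the 3 genes that met the same rule for lower estimates without 40C2 as well.

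Genes with higher estimates under anti-TNF were led by Abca6, Uty, Zfp933, Prorsd1, Ccdc122, Setd7, Phospho2, Insr, Mynn and Fam134b, by the same rule. Prorsd1, related to the editing domain of prolyl-tRNA synthetase (chr11:29511757-29515033), lay at 13.2, 10.4 and 12.5 CPM under isotype and 19.9, 16.6 and 17.7 CPM under anti-TNF. All anti-TNF libraries were higher. The estimate was 0.59 ± 0.11 (unadjusted p = 0.000217) and 0.51 ± 0.12 without 40C2 (unadjusted p = 0.00142). Mynn, a zinc finger protein, lay at 15.2, 14.5 and 14.7 CPM under isotype and 18.1, 18.2 and 19.5 CPM under anti-TNF, at 0.33 ± 0.09 and 0.35 ± 0.10 without 40C2. Both met the rule with and without 40C2.

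Setd7, a lysine methyltransferase, lay at 21.8, 24.3 and 21.7 CPM under isotype and 33.9, 26.8 and 27.1 CPM under anti-TNF, and its estimate of 0.37 ± 0.12 was 0.25 ± 0.11 without 40C2. Fam134b, a receptor for the autophagy of ER membrane, lay at 65.8, 62.5 and 55.9 CPM under isotype and 80, 74.1 and 76.5 CPM under anti-TNF, at 0.32 ± 0.10 and 0.29 ± 0.11. Abca6, a lipid transporter, lay at 3.54, 4.09 and 5.95 CPM under isotype and 10.7, 7 and 5.96 CPM under anti-TNF. It was high in 40C2, and 0.79 ± 0.26 became 0.51 ± 0.25 without it (unadjusted p = 0.00987 and 0.065), so it did not hold at 0.05. Insr, the insulin receptor, was at 0.35 ± 0.12 and 0.32 ± 0.13, with overlapping groups.

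3 genes met the rule for higher estimates only in the fit without 40C2. Tmem71, a membrane protein, lay at 19.7, 18.4 and 20.1 CPM under isotype and 22.2, 29.3 and 26.9 CPM under anti-TNF, with no overlap and estimates of 0.43 ± 0.14 and 0.53 ± 0.15. Eln, elastin, lay at 6.43, 6.32 and 6.15 CPM under isotype and 4.13, 17.6 and 10.1 CPM under anti-TNF. Tmem64, a membrane protein, lay at 19.6, 17.9 and 16.6 CPM under isotype and 18.5, 21.6 and 42.7 CPM under anti-TNF, with estimates of 0.62 ± 0.27 and 0.84 ± 0.25 and a high value in 46C6. For Eln, 40C2 held the lowest value of the 6, and the estimate went from 0.75 ± 0.43 to 1.13 ± 0.31 when it was left out. The sum of fibroblast markers was 742.6 CPM in 40C2, 2690 in 40A3 and 1350 in 46C6, against 1714 to 1850 CPM under isotype. Like Eln, it was lowest in 40C2 and highest in 40A3. In 46C6 it lay below the isotype range, where Eln lay above. The part of fibroblasts in the result was not tested.

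**Figure D4:**
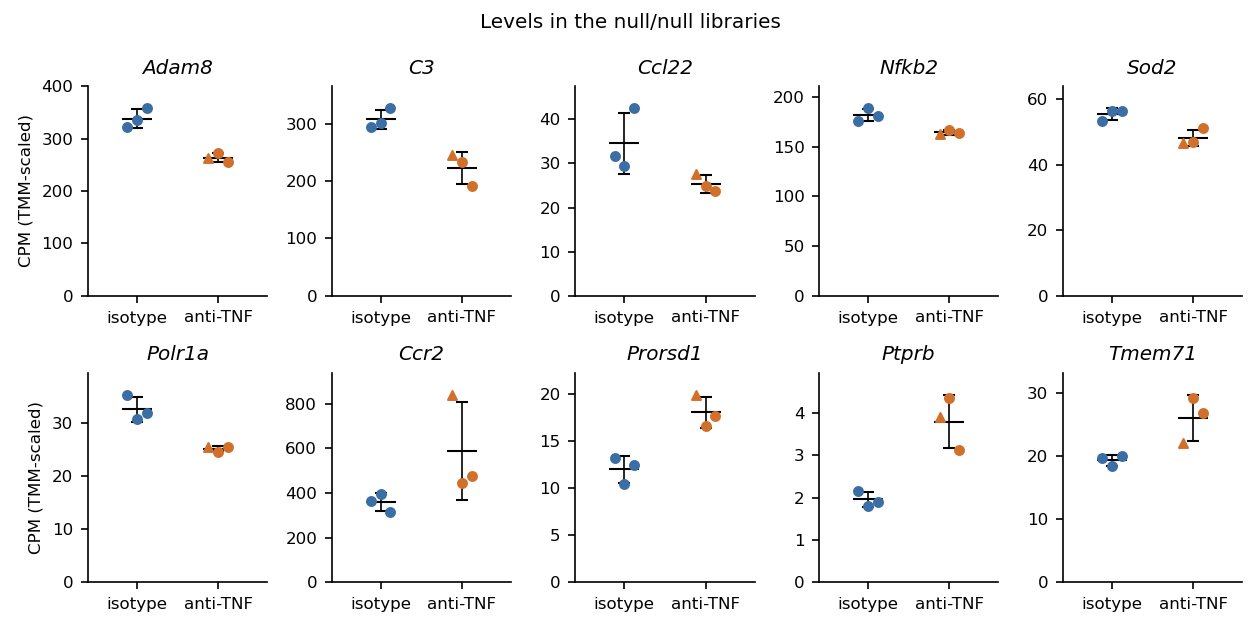
CPM (y axis, linear from 0) of 10 genes in the 3 isotype and 3 anti-TNF null/null libraries, with 1 point per library (40C2 as a triangle), a bar at the mean and whiskers of 1 SD. The points of the groups do not overlap in any of the 10 panels, and for Ccr2 the triangle at 839 CPM lies far above the other 2 anti-TNF points.

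The target of the antibody and its receptors differed by less than the spread between libraries. Tnf lay at 30.6, 34.3 and 24 CPM under isotype and 42.1, 40.8 and 25 CPM under anti-TNF. The highest values were in anti-TNF libraries, but the groups overlapped, and the estimate of 0.28 ± 0.47 (95% interval -0.78 to 1.33) was 0.15 ± 0.55 without 40C2. The receptors Tnfrsf1a and Tnfrsf1b were at -0.08 ± 0.09 (interval -0.28 to 0.11) and -0.06 ± 0.11 (interval -0.30 to 0.18). Without 40C2 they were at -0.09 ± 0.10 and -0.05 ± 0.13. Of the 25 tested TNF signalling genes 15 had higher and 10 lower estimates (median 0.0314), and 9 and 16 without 40C2 (median -0.041). Without the isotype library 40B2 the split was 10 and 15 (median -0.036).

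The 45 tested NF-κB target genes had no member called. Their estimates were higher in 30 and lower in 15 (median 0.101), and without 40C2 in 23 and 22 (median 0.000228), so the leaning to higher estimates did not hold without 40C2. Nor did it without 40B2, where 21 were higher and 24 lower (median -0.0158). Nfkbia and Tnfaip3, feedback inhibitors of NF-κB, were at 0.10 ± 0.22 and 0.16 ± 0.35 (0.00 ± 0.25 and -0.06 ± 0.39 without 40C2). Il1b, an inflammatory cytokine, lay at 229, 389.5 and 272 CPM under isotype and 595, 328 and 219.9 CPM under anti-TNF. Its highest value was that of 40C2, and the estimate of 0.36 ± 0.46 became -0.12 ± 0.46 without it.

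In 2 of the 45 all anti-TNF libraries were below all isotype libraries, beside 4.55% of all genes, and in 0 above. Without 40C2 the count below was 6 of 45, beside 7.43%. The share of 2 in 45 is near the background, and the 2 genes are given as values only. Nfkb2, a subunit of NF-κB, lay at 176, 188 and 181 CPM under isotype and 162, 167 and 164 CPM under anti-TNF. The estimate was -0.14 ± 0.07 with all libraries and -0.14 ± 0.09 without 40C2 (unadjusted p = 0.0744 and 0.145). Sod2, mitochondrial superoxide dismutase, lay at 53.2, 56.3 and 56.4 CPM under isotype and 46.6, 46.8 and 51 CPM under anti-TNF, at -0.20 ± 0.11 and -0.18 ± 0.13 (unadjusted p = 0.103 and 0.203).

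Chemokines and complement held a few genes whose estimates did not rest on 40C2. Ccl22, a chemokine for Ccr4-bearing T cells made by macrophages and dendritic cells (chr8:94745684-94751388), lay at 31.6, 29.5 and 42.4 CPM under isotype and 27.6, 24.8 and 23.6 CPM under anti-TNF. It was lower in every anti-TNF library, at -0.45 ± 0.20 (unadjusted p = 0.0425) and -0.51 ± 0.23 without 40C2 (unadjusted p = 0.0451). It was the 1 of 26 chemokines without overlap, a share no larger than the background of 4.55%, and the 26 split into 14 higher and 12 lower (15 and 11 without 40C2). C3, the central component of complement (chr17:57203967-57228136), lay at 294, 302 and 326 CPM under isotype and 245, 232 and 191 CPM under anti-TNF. It too was lower in every anti-TNF library, at -0.46 ± 0.18 (unadjusted p = 0.0253) and -0.54 ± 0.21 without 40C2 (unadjusted p = 0.025). Neither gene stayed below an unadjusted p of 0.05 in edgeR whichever library was left out. Without 40A3, 46C6 or 40C4, 0 of the 26 chemokines were lower at that level. The same held for 0 of the 20 complement genes without 46C6 or 40C4. Without 40B2 or 46C3 the count stayed at 1 in each list.

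Of the 20 complement genes 11 were higher and 9 lower, and 4 did not overlap. C3 and C5ar1, the receptor for the C5a fragment, were lower (2 of 20, beside 4.55% of all genes), and C2 and C5ar2 higher (2 of 20, beside 3.87%). C5ar1 was at -0.13 ± 0.15 and C5ar2 at 0.26 ± 0.15, and without 40C2 at -0.09 ± 0.17 and 0.23 ± 0.17. Of the 24 pro-inflammatory macrophage genes 14 were higher and 10 lower (median 0.154), but 9 and 15 without 40C2 (median -0.106). In 1 of the 24 all anti-TNF libraries were lower, beside 4.55% of all genes. This was Slc7a2, an arginine transporter of inflammatory macrophages. It lay at 16.5, 13.8 and 16.8 CPM under isotype and 9.17, 12.6 and 12.1 CPM under anti-TNF. Its estimates were -0.47 ± 0.23 and -0.34 ± 0.25 without 40C2 (unadjusted p = 0.0585 and 0.188).

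Irg1 (Acod1), the enzyme that makes itaconate, was low in 2 of the 3 anti-TNF libraries. It lay at 2.85, 5.32 and 2.7 CPM under isotype and 3.67, 0.467 and 0.873 CPM under anti-TNF. Only 40C2 among the anti-TNF libraries reached the isotype range, and the estimate of -1.11 ± 0.74 (unadjusted p = 0.162) became -2.42 ± 0.70 without it (unadjusted p = 0.00593). Nos2 and Arg1, the opposing arginine enzymes of inflammatory and reparative macrophages, were low. Nos2 lay at 0.285, 0.27 and 0.242 CPM under isotype and 0.379, 0.544 and 0.114 CPM under anti-TNF. Arg1 lay at 9.07, 2.85 and 4.88 CPM under isotype and 5.57, 8.52 and 3.95 CPM under anti-TNF. Their estimates were 0.37 ± 0.59 and 0.10 ± 0.66 (0.30 ± 0.68 and 0.16 ± 0.78 without 40C2), and the groups overlapped.

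Estimates of interferon-response genes turned with the library left out. Type I interferon-stimulated genes, which defend cells against viruses, had 17 higher and 23 lower estimates of 40 (median -0.0491) with all libraries, and 1 higher and 39 lower (median -0.381) without 40C2. Without the isotype library 40C4 they split the opposite way, into 37 higher and 3 lower (median 0.203), and without the anti-TNF library 40A3 into 32 higher and 8 lower (median 0.18). Without 40B2 5 were higher and 35 lower (median -0.237). The list therefore had no direction that held over these libraries. None was called, and 0 had an unadjusted p below 0.05 with all libraries or without 40C2. When 40C2 was left out, 1 of 40 (Ifi44, named after its values were seen) was lower without overlap, beside 7.43% of all genes. Irf7, a transcription factor of the response, lay at 159, 320.1 and 440.5 CPM under isotype and 524, 174 and 238 CPM under anti-TNF. Isotype values ran from the lowest to the second highest of the 6, and 40C2 was the highest. Mx1, an antiviral GTPase, was at 0.07 ± 0.41 and -0.47 ± 0.37 without 40C2, and Isg15, a ubiquitin-like modifier, at -0.41 ± 0.43 and -0.67 ± 0.49. The lowest isotype library, 40B2, had a summed level of 2400 CPM and the lowest anti-TNF library, 40A3, 2189 CPM, and the ranges of 2400 to 4542 and 2189 to 4386 CPM overlapped.

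IFN-γ-inducible genes, many of which type I interferon also induces, split into 27 higher and 11 lower (median 0.15), and into 10 and 28 without 40C2 (median -0.158). Without 40B2 they split into 18 and 20 (median -0.0249), and without 40C4 into 35 and 3 (median 0.277). Gbp2, a GTPase, was at -0.15 ± 0.66 and -0.52 ± 0.76 without 40C2. Cxcl9, a chemokine for T cells, lay at 3.5, 5.44 and 5.46 CPM under isotype and 4.28, 3.07 and 3 CPM under anti-TNF. The near-identical members of the Gbp family share reads, so the counts of single copies are uncertain. Ifng itself, made by lymphocytes, lay at 0, 0.193 and 0.0691 CPM under isotype and 1.48, 0.117 and 0.114 CPM under anti-TNF. The other chain of the receptor, Ifngr2, was at 0.00 ± 0.08 and 0.02 ± 0.09 without 40C2.

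Median estimates of antigen presentation genes were also lower without 40C2, and without 40B2. Of the 21 MHC class I genes 11 were higher and 10 lower (median 0.00409), 4 and 17 without 40C2 (median -0.0997), and 6 and 15 without 40B2 (median -0.111). Of the 14 MHC class II genes 12 were higher and 2 lower (median 0.191), 10 and 4 without 40C2 (median 0.0562), and 8 and 6 without 40B2 (median 0.0416). H2-Ab1, a class II chain, lay at 2519, 5053 and 3813 CPM under isotype and 5034, 3816 and 3979 CPM under anti-TNF, where the lowest and the highest values were both isotype libraries. Ciita, the class II transactivator, was at 0.28 ± 0.27 and 0.11 ± 0.29 without 40C2.

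Genes of Ly6C-high monocytes, the blood cells that enter injured muscle, had 12 higher and 9 lower estimates of 21 (median 0.0606), but 3 higher and 18 lower (median -0.468) without 40C2, and 8 and 13 (median -0.0742) without 40B2. Ccr2, the receptor that draws them in, was the 1 of 21 members without overlap, beside 3.87% of all genes, at 367, 396 and 317 CPM under isotype and 839, 443 and 478 CPM under anti-TNF. The estimate of 0.71 ± 0.26 (unadjusted p = 0.0187) was 0.36 ± 0.21 without 40C2 (unadjusted p = 0.112), so it did not hold at 0.05. Ly6c2, the gene of the Ly6C antigen, lay at 6.22, 21.1 and 12.9 CPM under isotype and 30.4, 6.22 and 11.7 CPM under anti-TNF. Plac8, another monocyte gene, lay at 15.7, 44.3 and 27 CPM under isotype and 67.5, 9.64 and 23.8 CPM under anti-TNF. In both, 40C2 was highest and 40A3 was at or under the lowest isotype value. Without 40C2 their estimates were -0.58 ± 0.90 and -0.79 ± 0.93, and the unadjusted p was 0.535 and 0.418.

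Cells of other types can pass such a gate, and their markers were examined in each library. Of 17 dendritic cell markers 16 had higher estimates (median 0.464), and 14 without 40C2 (median 0.184). Of 15 lymphocyte markers, many of them near the filter on low counts, 11 were higher (median 1.08), but 4 without 40C2 (median -0.107). With a filter of 1 CPM in at least 3 samples 9 were left, 5 of them higher and 4 lower (median 0.169), and the summed level of the 15 was 267.2 CPM in 40C2 and 247.6 to 333.1 CPM in the others. Cd8a lay at 0.326, 1 and 0.449 CPM under isotype and 2.99, 0.544 and 0.304 CPM under anti-TNF. Of 13 endothelial markers 12 were higher (median 0.234), and 8 without 40C2 (median 0.133), and their sum was 58.1 to 73.6 CPM under isotype and 65.5 to 81.2 CPM under anti-TNF. Of the 6 neutrophil markers tested, Ltf reached 7.24 CPM in the isotype library 40B2 and at most 0.308 CPM in the other 5. The part of other cells in the results above was not tested.

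Cell cycle genes were lower in 33 of 34 (median -0.217) with all libraries and in 19 of 34 (median -0.00603) without 40C2. The median was -0.0898 without 40B2, -0.332 without 40C4 and -0.475 without 46C6. Without 40C2 Mki67, a marker of dividing cells, went from -0.19 ± 0.22 to -0.01 ± 0.21. Among the subunits of the replication helicase, Mcm2 lay at 40.6, 33.3 and 32.9 CPM under isotype and 19.9, 28.8 and 27.2 CPM under anti-TNF, and its estimate of -0.49 ± 0.16 was -0.35 ± 0.15 without 40C2 (unadjusted p = 0.00819 and 0.0378). Mcm3 was at -0.37 ± 0.15 and -0.25 ± 0.15, and Mcm7 (named after its values were seen) at -0.21 ± 0.16 and -0.09 ± 0.16. In these 3 of 34 all anti-TNF libraries were lower, beside 4.55% of all genes. Osteoclast and fusion genes were lower in 18 of 22 (median -0.213) and in 9 of 22 without 40C2 (median 0.0294), but in 20 of 22 without 46C6 (median -0.882). With the title number as a block they were lower in 18 of 22 (median -0.526), and in 17 without 40C2 (median -0.357), so the loss without 40C2 was not seen with the block. The median was -0.0863 without 40A3 and -0.135 without 40C4. Mmp9, a gelatinase of osteoclasts, lay at 474, 359.9 and 659 CPM under isotype and 19.2, 171 and 826 CPM under anti-TNF.

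Glycolysis, oxidative phosphorylation and lysosome genes kept their leaning without 40C2, with small estimates. Glycolysis genes were lower in 16 of 19 (median -0.152) and in 18 without 40C2 (median -0.111). Pkm, pyruvate kinase, lay at 939.7, 1009 and 1146 CPM under isotype and 801, 910.5 and 896 CPM under anti-TNF, at -0.25 ± 0.12 and -0.19 ± 0.13. Pgam1, phosphoglycerate mutase, was at -0.30 ± 0.14 and -0.26 ± 0.16, and Tpi1, triosephosphate isomerase (named after its values were seen), at -0.14 ± 0.09 and -0.12 ± 0.11. In these 3 of 19 all anti-TNF libraries were lower, beside 4.55% of all genes. Oxidative phosphorylation genes were lower in 29 of 32 (median -0.103) and 26 without 40C2 (median -0.0523), and 0 of them were without overlap when all libraries were used. Lysosome genes were lower in 20 of 29 (median -0.0679) and 22 without 40C2 (median -0.0638), but in 15 without 46C6 (median -0.0402) and in 18 without 40C4 (median -0.0237). Over all genes 48.7% were lower with all libraries and 49.6% without 40C2.

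Immediate early and stress genes, which respond within minutes to handling as well as to signals, leaned the other way. They were higher in 22 of 23 (median 0.205) and in 19 without 40C2 (median 0.103). The leaning was smaller without 40B2, at 13 higher and 10 lower (median 0.0891), without 40A3, at 14 and 9 (median 0.0909), and with voom sample weights, at 15 and 8 (median 0.0558). Hspa1b, an inducible Hsp70, lay at 426, 514 and 494 CPM under isotype and 691, 625 and 516 CPM under anti-TNF, at 0.35 ± 0.28 and 0.26 ± 0.32, and reads from its near-identical copy Hspa1a cannot be told apart with certainty. Jun was at 0.20 ± 0.23 and 0.10 ± 0.26, and Fos at 0.03 ± 0.21 and -0.05 ± 0.24. None had an unadjusted p below 0.05.

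Reparative macrophage genes were higher in 24 and lower in 17 of 41 (median 0.0492), and 18 and 23 without 40C2 (median -0.026). Without 40A3 or 40B2 the median was also below 0, at -0.0689 and -0.0519. Igf1, a growth factor for muscle fibres, was at -0.17 ± 0.17 and -0.03 ± 0.17, and Mrc1 (CD206) at -0.03 ± 0.13 and -0.05 ± 0.15. Gpnmb, a glycoprotein of phagocytic macrophages, lay at 3091, 3348 and 3877 CPM under isotype and 2617, 3054 and 3030.0 CPM under anti-TNF. It was lower in all anti-TNF libraries (1 of 41, beside 4.55% of all genes), at -0.25 ± 0.17 and -0.18 ± 0.19 (unadjusted p = 0.172 and 0.373). Efferocytosis and lipid genes were lower in 19 of 28 (median -0.0969) and 21 without 40C2 (median -0.0791). Lrp1, a scavenger receptor for dying cells, lay at 2616, 2649 and 2665 CPM under isotype and 1946, 2536 and 2274 CPM under anti-TNF, also without overlap (1 of 2 such members of 28, beside 4.55% of all genes), at -0.23 ± 0.14 and -0.14 ± 0.15.

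**Figure D5:**
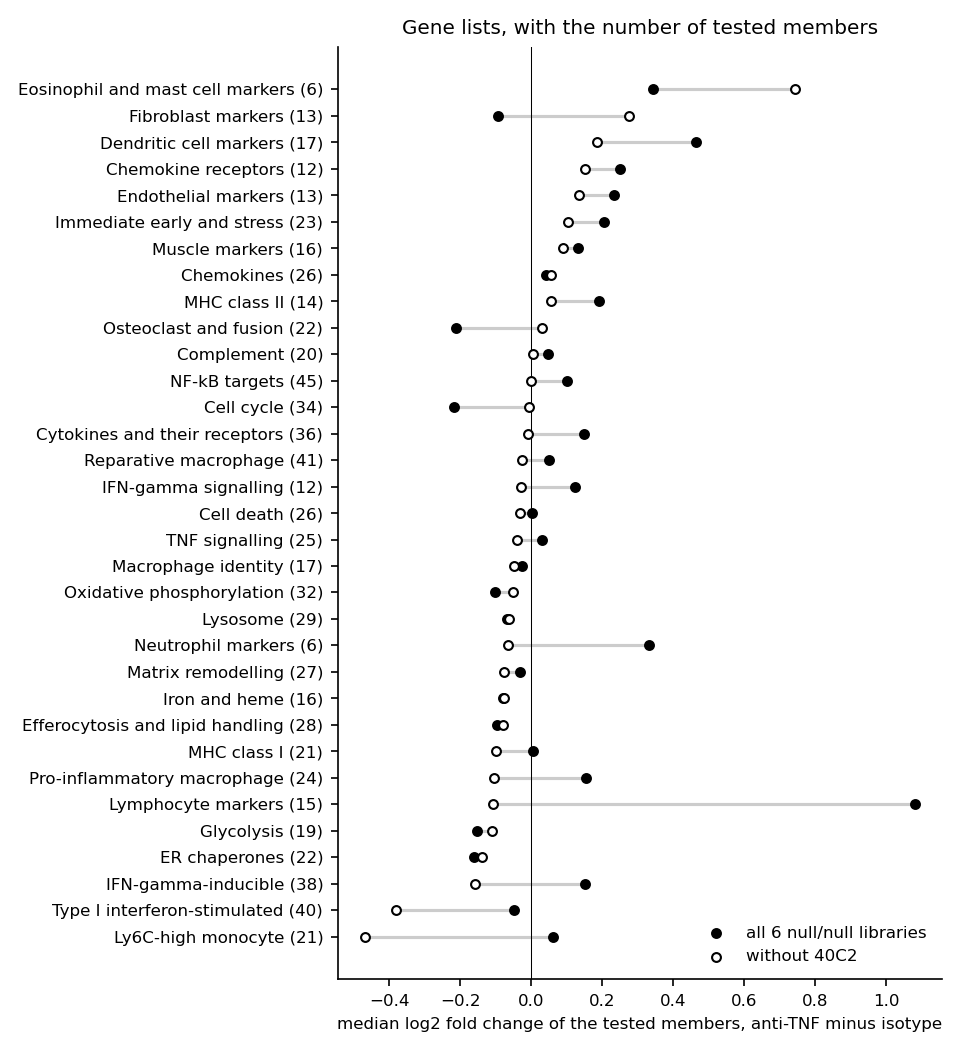
Median log2 fold change (x axis, anti-TNF minus isotype in null/null) of the tested members of 33 gene lists (y axis, number of members in brackets), with all 6 libraries (filled) and without 40C2 (open). The filled and open points lie close together for ER chaperones (-0.163 and -0.139), lysosome and complement, and on opposite sides of 0 for IFN-γ-inducible genes (0.15 and -0.158), lymphocyte markers and Ly6C-high monocyte genes.

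The effect of the antibody in null/null cells was set against that in wt/null cells. The difference of the antibody effects (null/null minus wt/null) was tested for each gene in edgeR, which called 0 of 12981 (0%), with 196 genes at an unadjusted p below 0.05 and a smallest adjusted p of 1. Without 40C2 it called 0, with 209 genes at an unadjusted p below 0.05. DESeq2 and limma voom called 0. Across genes, which are not independent replicates, the 2 antibody effects had a Pearson r of 0.41, and of 0.0578 without 40C2. Without both 40C2 and 40C1, the wt/null anti-TNF library that also stood apart on the first component of all 12, it was 0.0987. The 2 effects share no library.

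The smallest unadjusted p for that difference was that of Ptprb, a receptor phosphatase of endothelial cells (chr10:116275502-116389538). It lay at 2.16, 1.81 and 1.9 CPM under isotype and 3.9, 4.36 and 3.11 CPM under anti-TNF in null/null. In wt/null it lay at 5.16, 3.98 and 3.78 CPM under isotype and 2.75, 4.05 and 3.26 CPM under anti-TNF. The null/null isotype libraries were thus the low ones, below all 9 others. The null/null estimate was 0.95 ± 0.22 (unadjusted p = 0.00105) and 0.93 ± 0.25 without 40C2 (unadjusted p = 0.00337), and the difference from wt/null was 1.31 ± 0.31 (unadjusted p = 0.00115). Of the 13 endothelial markers 3 were higher without overlap, beside 3.87% of all genes. Among them were Tek and Cldn5, at 0.60 ± 0.32 and 0.74 ± 0.39 (0.59 ± 0.37 and 0.71 ± 0.45 without 40C2). Pecam1 and Cdh5, defining markers of endothelium, did overlap, at 0.39 ± 0.34 and 0.23 ± 0.25 (-0.04 ± 0.31 and 0.13 ± 0.28 without 40C2).

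Ccl22, Ccdc86, Prorsd1 and Creld2 also differed between the genotypes at an unadjusted p below 0.05, none after adjustment. For Ccl22 the wt/null values were 23.4, 19.2 and 14.3 CPM under isotype and 19.7, 29.6 and 22.9 CPM under anti-TNF, and the difference was -0.79 ± 0.28 (unadjusted p = 0.0152). The 3 null/null anti-TNF values lay inside the wt/null range, and the 3 null/null isotype values lay at its upper end or above. The difference was -0.48 ± 0.17 for Ccdc86 (unadjusted p = 0.014), 0.45 ± 0.16 for Prorsd1 (unadjusted p = 0.0151) and -0.46 ± 0.19 for Creld2 (unadjusted p = 0.032). Without both 40C2 and 40C1 these differences were -0.68 for Ccl22, -0.50 for Ccdc86, 0.43 for Prorsd1 and -0.44 for Creld2.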

How the data were processed

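Messenger RNA of sorted cells was sequenced in 12 libraries, 3 per genotype and antibody. The authors deposited 1 table of whole-number read counts per gene symbol, not normalized. Per the labels' protocols, RNA came from an RNeasy Micro kit and libraries from a NEBNext Ultra II stranded mRNA kit, sequenced paired-end on a NextSeq instrument. The submitters' processing notes name bcl2fastq 2.20, STAR, Bowtie and mm10 without their roles. The counting tool, its strand setting and the annotation are not given in the sources used here. Reads of overlapping or antisense genes may therefore be shared.

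Columns were matched to samples by title. The filterByExpr rule, given the 4 groups, kept 12981 genes with at least 99.968% of each library's counts. Counts were scaled by TMM, and edgeR 4.0.16 (R 4.3.3) fitted a robust quasi-likelihood model with a mean per group to all 12 libraries, which share 1 estimate of the spread (biological coefficient of variation 0.179). Tests were two-sided, with Benjamini-Hochberg adjustment over all genes and a threshold of 0.05. A prior count of 2 was added for log2 CPM. Of the symbols 95% matched the RefSeq table used for positions (GRCm38.p6, the build named mm10 in the notes), and promoter sequences are RefSeq's.

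Named are the ligands and receptors, up to 10 largest estimates each way at an unadjusted p below 0.01 and a mean log2 CPM above or at 2 (with and without 40C2), key members of each of 33 lists with up to 3 others of smallest p, and 10 genes by the difference between genotypes. Members, lists and rules were chosen with earlier results of these data known. Alternatives were DESeq2 1.42.0, limma 3.58.1 voom with sample weights, other scaling and filters, the title number as a block, fewer libraries and each library left out in turn.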

Additional observations from a re-analysis of the deposited data

How the results depend on the processing

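The count of 0 called genes held with DESeq2, limma voom, relative log expression scaling, no filter, a stricter filter (1 CPM in 3 or more samples), a block for the title number (with and without 40C2), only titles starting with 40, and without both 40C2 and 40C1. Leaving out each of the 6 libraries in turn gave 0 to 0 called genes for the antibody in null/null and for the difference between genotypes. A fit of only the 6 null/null libraries called 1 gene, and 1 without 40C2. That gene, BC002163, had a log2 fold change of 2.73 (adjusted p = 0.0251 in edgeR) and of 2.70 without 40C2 (adjusted p = 0.0374). Genes at an unadjusted p below 0.05 numbered 452 with all libraries, 179 without 40C2, 217 without 40C4, 739 without 40A3 and 982 without 40B2, so these 4 libraries each moved the count by over 1.5 times. The sign of the estimate changed without 40C2 in 66 of 301 named genes and 13 of 33 list medians. It changed with voom weights in 52 genes and 10 medians, without 40B2 in 38 and 10, with the title block in 1 and 1, and with DESeq2 or relative log expression scaling in 0 and 0. The labels give no number that pairs libraries across groups, and the title number gave 0 calls as a block. Totals of 23.9 to 29.9 M counts and 3 libraries per group left 79.8% of genes with an interval inside a 2-fold change, and for the rest the interval reached past it.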

Other observations

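BC002163, a gene known in the table only by a placeholder symbol, had values of 2 kinds across the 12 libraries. In null/null it lay at 0.814, 0.656 and 1.00 CPM under isotype and at 5.83, 5.95 and 4.86 CPM under anti-TNF. In wt/null it lay at 1.03, 0.727 and 5.78 CPM under isotype and at 4.54, 4.79 and 1.01 CPM under anti-TNF, so the wt/null groups each held libraries of both kinds. No library lay between 1.03 and 4.54 CPM. Its log2 fold change in null/null was 2.74 ± 0.77 in the fit of all 12 libraries (unadjusted p = 0.00481, adjusted p = 0.947 in edgeR). It was named after its values were seen.

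Muscle and mast cell transcripts were present at low levels. Muscle markers summed to 118.9 to 221.9 CPM under isotype and 157.4 to 186.9 CPM under anti-TNF, and Pax7, a factor of muscle stem cells, had an estimate of 1.57 (1.11 without 40C2). At an unadjusted p below 0.05 in edgeR, 1 of the 16 muscle markers was higher with all libraries. That count was 0 without 40C2, without 40B2 or without 40C4. Eosinophil and mast cell markers summed to 9.162 to 15.31 CPM under isotype and 8.827 to 19.43 CPM under anti-TNF. The sort removed cells with SIGLECF, a marker of eosinophils, and these sums overlapped between the groups.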
